A study of Nicotiana tabacum with 15 samples.

Results

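K326 (K) and G70 (G) were the female parents of 2 tobacco crosses with the same male parent, Jiucaiping No.2 (J), and the root transcriptomes of these mothers were compared gene by gene. The comparison used 6 of the 15 libraries, 3 of K and 3 of G, and the 35555 of 69500 gene models that reached 1 FPKM in 3 or more of these 6 libraries. FPKM is the number of fragments assigned to a gene, divided by its length and by the total of fragments mapped. Between K and G 298 genes differed, which is 0.838% of the genes tested. Each of them was then followed in the hybrids KJ (K × J) and GJ (G × J), whose 6 libraries did not enter the difference K minus G, although they shared in the estimate of the spread behind its p-values.

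Cultivated tobacco, Nicotiana tabacum, is an allotetraploid that carries the genomes of a pair of ancestral species, so that many of its genes are present as similar copies. An F1 hybrid receives a chromosome set from each parent. KJ and GJ therefore share their paternal set and differ in the maternal set, and a difference between the mothers that is carried by the chromosomes can still be seen between the hybrids. The root takes up water and mineral salts, anchors the plant and is the organ in which nicotine is made before it moves to the leaves.

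All plants were seedlings raised in a greenhouse by the floating seedling method, and the labels name no treatment and no transgene. K, G and J are cultivars, and each genotype had 3 libraries. The tissue entry of the labels and the methods of the study give young root, whereas the titles name leaf, and no gene of known root or leaf expression could be matched to the IDs of the table to check this. The sources do not say whether 1 seedling or several went into a library. What the p-values measure is therefore the spread among libraries, which may be technical. The gene IDs carry no descriptions in the table, and functions are known here only for the 9 genes that the study discusses by name. The first number of an ID is the scaffold of the genome assembly and the second gives the order of the gene on it.

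The 6 libraries were alike in their totals, with summed FPKM between 818587 and 827334 and between 34147 and 35535 genes of at least 1 FPKM. In a principal component analysis of log2(FPKM + 1), however, K replicate 2 and G replicate 1 stood apart from the rest on the first component, which held 43.0% of the variance, with scores of -69.1 and -65.8 against 11.1 to 50.7 for the other 4 libraries. The second component, with 25.7%, separated the mothers, and K scored between 24.6 and 44.5 and G between -44.5 and -23.2. The correlation of log2(FPKM + 1) over the genes tested was 0.927 to 0.980 between libraries of K, 0.909 to 0.948 between libraries of G and 0.900 to 0.952 between a library of K and a library of G. On the genotype means it was 0.969. At a number of genes the hybrid libraries did not show the levels of their labelled parents. For example, KJ had at least 1 FPKM in every library at 3 genes that were at most 0.1 FPKM in every library of K and J, whereas every library of G had at least 1 FPKM there. The labels were followed as given, and the identity of the hybrid libraries was not tested, so each statement on whether a difference persisted rests on KJ carrying the maternal set of K and GJ that of G.

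The levels of the mothers were compared on log2(FPKM + 1) with limma, which fitted the means of the 5 genotypes over all 15 libraries together. A gene was called where its p, adjusted after Benjamini and Hochberg, did not exceed 0.05 and its difference was 1 or more in size. Because 1 is added before the log, the difference understates the ratio of a gene with low values. Of the 298 called genes, 154 were higher in K (0.433% of the genes tested) and 144 were higher in G (0.405%). An unadjusted p of at most 0.05 was reached by 4108 genes. In all 298 the 3 libraries of one mother lay wholly above those of the other, as they did with K above in 8.16% and with G above in 4.62% of all genes tested. The median absolute difference of the called genes was 1.70, and it ranged from 5.56 higher in K to 4.55 higher in G (-4.55). An absolute difference of at least 2 was found in 109 genes, 69 higher in K and 40 higher in G, while the median over all genes tested was 0.05. Bulk RNA cannot tell a cell type that is rarer in a root from less RNA per cell.

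Called genes were found at every level of expression. Among genes with a mean below 5 FPKM in the higher mother 100 of 12056 were called (0.829%), from 5 to 10 FPKM 60 of 7886 (0.761%), from 10 to 50 FPKM 124 of 12037 (1.03%), and at 50 FPKM or more 14 of 3576 (0.391%). The share was thus lowest among the most abundant transcripts. The number of calls changed with the libraries used, which alters both the means and the estimate of the spread. Leaving out the libraries that stood apart, K replicate 2 and G replicate 1, together with J replicate 2, gave 468 calls, of which 246 were among the 298, and a fit of K and G alone gave 197, of which 185 were among the 298.

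The largest differences in favour of K were in genes that were close to 0 in G and plainly present in J. Nitab4.5_0027235g0010 had 45.9, 53.2 and 47.1 FPKM in the libraries of K and 0, 0 and 0.16 in those of G. Its log2 difference was 5.56 (SE 0.35, limma adjusted p = 1.05e-06), the largest of the 298, and J had 49.3 ± 2.61 FPKM (SD, n = 3). Nitab4.5_0007650g0050 had 23.2, 25.8 and 24.0 FPKM in K and 0.09, 0.11 and 0.11 in G. The spread within each mother was small (SD 1.31 FPKM in K and 0.0115 in G), and the difference of 4.52 (SE 0.09) had the smallest adjusted p of the comparison, 2.45e-11.

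Nitab4.5_0006260g0010 had 22.7, 22.3 and 28.8 FPKM in K and was listed at 0 in every library of G (adjusted p = 2.44e-09), so no ratio is given. Nitab4.5_0006260g0030, the third gene of the same scaffold, had 23.8, 17.1 and 23.0 FPKM in K and 0, 0.26 and 0.11 in G, a difference of 4.30 (SE 0.14, adjusted p = 1.04e-09). Both were thus at about the same level in K and almost absent from the list of transcripts of G. Nitab4.5_0005936g0020 had 23.8, 28.2 and 22.6 FPKM in K against 0, 0.34 and 0.11 in G, a difference of 4.49 (SE 0.14). Nitab4.5_0001123g0010 had 20.8, 24.98 and 19.5 FPKM in K against 0, 0.12 and 0.18 in G (4.37, SE 0.13), and Nitab4.5_0000138g0020 had 22.1, 22.8 and 18.4 against 0, 0.11 and 0.07 (4.38, SE 0.14). Nitab4.5_0000714g0090 stood higher in G than these, with 1.07, 1.11 and 0.71 FPKM there and 36.9, 42.2 and 39.8 in K, a difference of 4.38 (SE 0.14). In each of these 8 genes J was at the level of K rather than of G, with means between 18.9 and 49.3 FPKM.

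Among the genes higher in G the father was more often at the low level. Nitab4.5_0001150g0020 had 38.5, 44.3 and 32.6 FPKM in G and 0.59, 0.73 and 0.71 in K, and its difference of -4.55 (SE 0.14, adjusted p = 1.04e-09) was the largest in favour of G. J was at 0.44, 0.46 and 0.41 FPKM, so that G alone of the parents carried this transcript at a high level. Nitab4.5_0001478g0110 had 25.6, 33.8 and 14.8 FPKM in G and 0.22, 0 and 0 in K (-4.52, SE 0.40, adjusted p = 2.37e-05). Nitab4.5_0000069g0380 had 12.5, 10.8 and 18.3 FPKM in G and 0.04, 0 and 0.07 in K (-3.81, SE 0.18), and Nitab4.5_0003168g0020 had 13.1, 9.85 and 9.05 in G and was listed at 0 in the 3 libraries of K (adjusted p = 2.06e-09). These 3 genes were also low in J, where no library exceeded 1.16 FPKM.

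A pair of abundant transcripts was high in G and present at a lower level in K. Nitab4.5_0001310g0060 had 153, 180 and 126 FPKM in G and 18.4, 15.0 and 12.2 in K, a difference of -3.25 (SE 0.22, adjusted p = 1.61e-06). Nitab4.5_0000188g0340 had 82.7, 180 and 107 FPKM in G and 8.68, 6.83 and 9.88 in K, a difference of -3.65 (SE 0.33, adjusted p = 2.98e-05). J was close to K in both, with 10.1 ± 3.29 and 7.27 ± 4.29 FPKM (SD, n = 3). In the remaining 2 of the largest 8 J was on the side of G. Nitab4.5_0000245g0270 had 19.6, 17.4 and 7.68 FPKM in G and 12.3, 10.6 and 18.2 in J and was listed at 0 in every library of K. Nitab4.5_0001523g0030 had 91.8, 147 and 61.5 FPKM in G and 3.98, 6.22 and 3.95 in K, a difference of -4.08 (SE 0.55, adjusted p = 0.00131), with J between them at 41.1 ± 14.7.

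**Figure D1:**
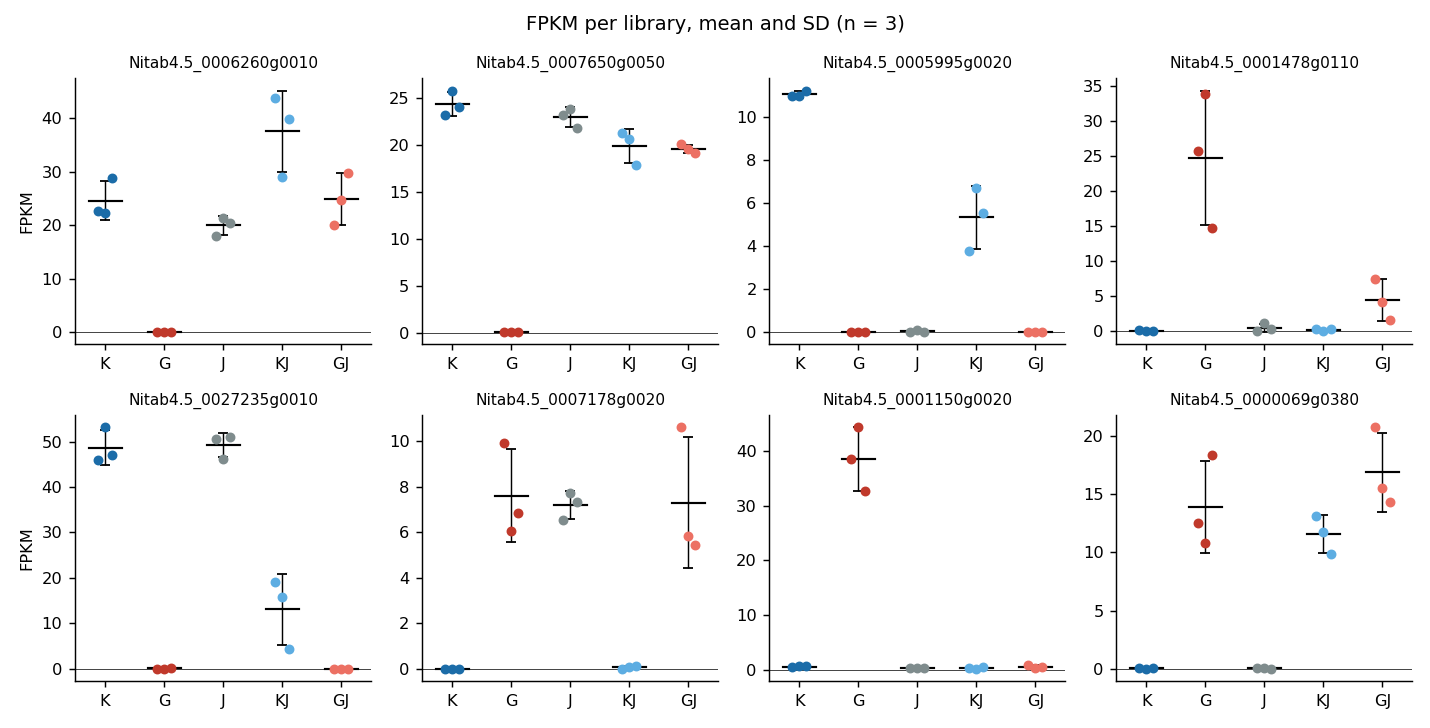
FPKM in each of the 15 libraries for 8 of the genes called between K and G (points), with the genotype mean and SD of 3 libraries (bars), one panel per gene with its own axis. Nitab4.5_0005995g0020, Nitab4.5_0007178g0020, Nitab4.5_0001478g0110 and Nitab4.5_0027235g0010 kept the order of the mothers between KJ and GJ, whereas Nitab4.5_0007650g0050, Nitab4.5_0006260g0010 and Nitab4.5_0000069g0380 were plainly present in both hybrids and Nitab4.5_0001150g0020 was below 1 FPKM in both.

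The position of the father between the mothers was uneven over the called genes. J was nearer to K than to G in 224 of the 298 (75.2%) against 49.0% of all genes tested. Genes higher in K had J on the side of K in 124 of 154, and genes higher in G had J on the side of K in 100 of 144. J lay outside the range of the mothers' means in 106 of the 298 (35.6%, against 61.0% of all genes tested), a number that the choice of genes with a wide gap between the mothers keeps low. The reads of all libraries were mapped to the genome of K326, so a transcript of G or J that differs in sequence from that of K and one that is less abundant cannot be told apart in these values.

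The hybrids differed from each other in 147 of the 35555 genes by the same rule (0.413%), with 63 higher in KJ (0.177%) and 84 higher in GJ (0.236%), and 7381 genes had an unadjusted p of at most 0.05. The median KJ minus GJ over all genes tested was -0.14, and the GJ libraries lay wholly above those of KJ in 24.3% of the genes tested against 7.16% for the reverse, so GJ was the higher hybrid at most genes. This shift depended on the scaling. With median-of-ratios scaling the median was 0.01 and 84 genes were higher in KJ and 59 higher in GJ, and with quantile normalization it was -0.05 with 74 and 39. The number of hybrid calls was also set by single libraries: it was 52 without KJ replicate 1, 61 without KJ replicate 3, 70 without GJ replicate 2, 69 without GJ replicate 3 and 332 without GJ replicate 1.

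Most differences between the mothers were not called between the hybrids. Of the 298 genes 27 (9.06%) were called in the same direction, which is 18.4% of the genes called between KJ and GJ, and 1 was called in the opposite direction. The 27 comprised 13 of the 154 genes higher in K (8.44%, against 0.177% of all genes tested called higher in KJ) and 14 of the 144 higher in G (9.72%, against 0.236%). Their median absolute difference was 2.15 (as K minus G) between the mothers and 1.35 (as KJ minus GJ) between the hybrids. The count of 27 fell to 15 without KJ replicate 1 and to 16 without KJ replicate 3, and it was 35 of 468 without K replicate 2, G replicate 1 and J replicate 2. The remaining genes called between the hybrids were not called between the mothers.

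Without the threshold the direction was weakly shared. The sign of KJ minus GJ was that of K minus G in 83 of the 154 genes higher in K (53.9%, against 30.2% of all genes tested with KJ above GJ) and in 97 of the 144 higher in G (67.4%, against 69.8% with GJ above KJ), while 5 genes higher in G were listed at 0 in every hybrid library. Measured from the median gene, the direction was shared by 104 (67.5%) and 79 (54.9%). The 3 and 3 hybrid libraries were separated in the direction of the mothers in 45 genes higher in K (29.2% against 7.16%) and in 48 higher in G (33.3% against 24.3%). They were separated in the opposite direction in 27 (17.5% against 24.3%) and 10 (6.94% against 7.16%), shares not above those of all genes tested. For the genes higher in G the share with the sign of the mothers was close to that of all genes tested. Their share with libraries separated in the direction of the mothers was above it.

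The size of the difference was smaller between the hybrids. The median K minus G was 1.79 for genes higher in K and their median KJ minus GJ was 0.02, and for genes higher in G the medians were -1.61 and -0.18. Over all genes tested the median KJ minus GJ was -0.14, so 0.02 lay above the median gene and -0.18 close to it. If each hybrid lay at the mean FPKM of its parents, the mid-parent value, the medians of KJ minus GJ would be 0.71 and -0.85. The genes were chosen for a large K minus G, and the same means of K and G enter the mid-parent value. Both are therefore drawn away from 0 by the choice and KJ minus GJ is not, so part of the smaller size follows from the choice. The difference of the differences, tested in the same fit, was called in 153 of the 298 genes, against 280 of all 35555 (0.788%). It was called in 88 of the genes higher in K and 65 of those higher in G, and the hybrid difference was the smaller one in size in 88 and 64 of them. Without K replicate 2, G replicate 1 and J replicate 2 it was called in 227 of 468. Since K minus G chose these genes and enters this test, the 153 describe the chosen genes. Across all genes tested the correlation of KJ minus GJ with K minus G was -0.02, and across the 298 called genes it was 0.43. Both are descriptions over genes that share the same 12 libraries and are not independent.

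**Figure D2:**
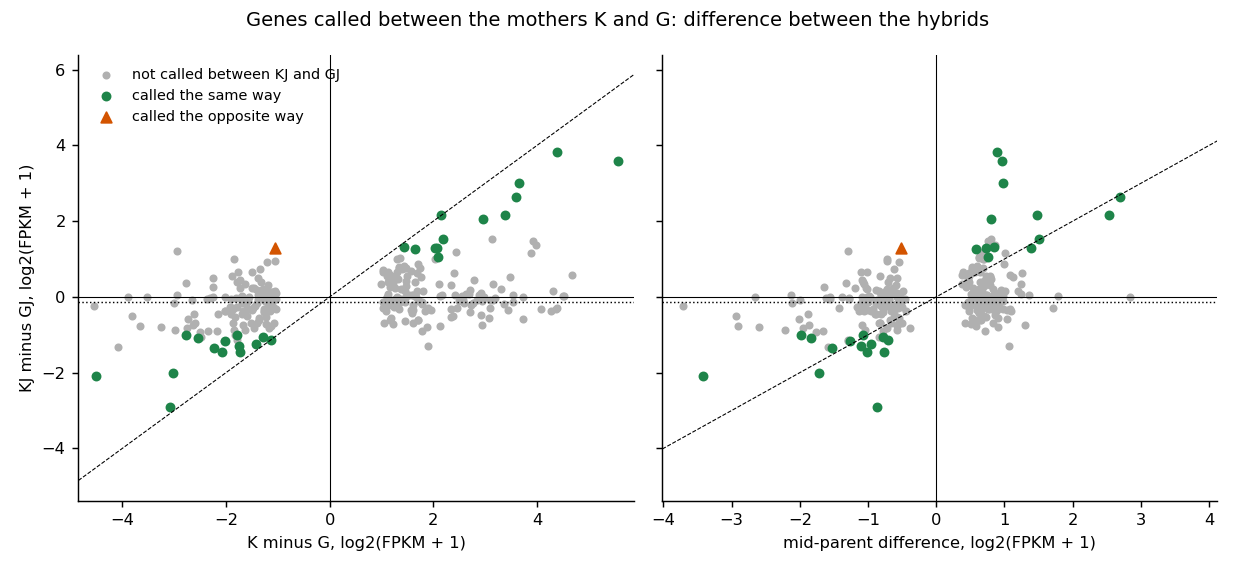
KJ minus GJ on log2(FPKM + 1) of the 298 called genes, set against K minus G (left) and against the mid-parent difference (right), with the diagonal of equal differences (dashed), 0 (solid) and the median of all genes tested, -0.14 (dotted). The 27 genes called the same way (green) lie in the lower left and upper right of each panel and the 1 gene called the opposite way (triangle) in the upper left, while most genes lie in a flat band around 0.

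The share of genes called the same way differed with the position of the father, a description without a test. In 130 genes J was nearer to the mother with the lower level, and 18 of these (13.8%) were called the same way in the hybrids. In 168 genes J was nearer to the mother with the higher level, and 9 (5.36%) were. The mid-parent difference was at least 1 in 79 genes, of which 14 were called the same way, 56 had the sign of the mothers and 29 had separated libraries, and it was below 1 in 219 genes, of which 13, 124 and 64 did so. Of all genes tested 0.413% were called between the hybrids. KJ was above GJ in 30.2% of them, with separated libraries in 7.16%, and GJ was above KJ in 69.8%, with separated libraries in 24.3%. The classes by mid-parent difference mix both directions, so their counts cannot be set against a single share.

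The 27 kept genes differed in the level of J and in how near each hybrid stood to its mother. In Nitab4.5_0005995g0020, higher in K, the libraries of K had 11, 10.99 and 11.3 FPKM, those of G were listed at 0 and those of J had 0, 0.09 and 0. KJ had 3.78, 6.69 and 5.55 FPKM and GJ was listed at 0 in every library (adjusted p = 4.62e-07), so the transcript was seen only where K was a parent. The KJ mean of 5.34 FPKM was close to the middle between K and J.

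Another 2 kept genes were high in K and in J and yet nearly absent from GJ. Nitab4.5_0000714g0090 had 22.4, 19.5 and 19.2 FPKM in KJ and 0.76, 0.19 and 0.64 in GJ, a difference of 3.82 (SE 0.14, adjusted p = 1.60e-08), although J had 41.6, 43.2 and 41.5. Nitab4.5_0027235g0010 had 19.1, 15.8 and 4.28 FPKM in KJ and was listed at 0 in the 3 libraries of GJ (adjusted p = 0.000347), although J had 50.7, 46.3 and 50.9. In both, GJ was at the level of its mother G and not between its parents, and KJ was below both K and J. Nitab4.5_0000022g0210 had the same order of genotypes, with 41.7, 21.6 and 36.8 FPKM in K, 0.24, 2.34 and 3.41 in G, 28.6 ± 12.5 in J (SD, n = 3), 18.4, 23.1 and 16.2 in KJ and 3.22, 0.96 and 0.91 in GJ. Its hybrid difference of 3.0 (SE 0.48) had an adjusted p of 0.0168, which rose to between 0.0566 and 0.0958 when a library of KJ, GJ replicate 2 or GJ replicate 3 was left out.

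Of the kept genes higher in G, Nitab4.5_0007178g0020 had 9.93, 6.07 and 6.83 FPKM in G, 6.52, 7.71 and 7.35 in J, and at most 0.01 in K. KJ had 0, 0.06 and 0.12 FPKM and GJ had 10.6, 5.84 and 5.43, a difference of -2.92 (SE 0.21, adjusted p = 8.68e-06), close to the -3.07 between the mothers. This gene is the mirror image of the preceding ones: KJ was at the level of its mother K although J was high.

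The hybrid calls of the other 3 were near the threshold. Nitab4.5_0001478g0110, at 24.7 ± 9.58 FPKM in G, had 0.26, 0 and 0.23 FPKM in KJ and 7.48, 4.20 and 1.63 in GJ, a difference of -2.08 (SE 0.40, adjusted p = 0.0393). Nitab4.5_0000081g0130 had 21.5, 7.74 and 15.8 FPKM in G and 0.44, 0.58 and 1.75 in K, and 0, 0.18 and 1.31 in KJ against 2.60, 5.61 and 6.62 in GJ, a difference of -2.02 (SE 0.41, adjusted p = 0.04997). Nitab4.5_0001647g0120 had 10.9, 11 and 7.45 FPKM in G and 2.75, 3.77 and 2.48 in K, and 3.06, 2.62 and 1.19 in KJ against 5.01, 6.94 and 8.03 in GJ, a difference of -1.25 (SE 0.24, adjusted p = 0.0393). The hybrid libraries did not overlap in any of the 3, and each of these hybrid calls was lost under several of the alternatives, among them a fit of the hybrids alone and leaving out KJ replicate 1 (adjusted p between 0.0730 and 0.236). The difference of Nitab4.5_0001647g0120 between the mothers was itself not called without K replicate 3 (adjusted p = 0.0504) or in a fit of K and G alone (0.0516). Outside these 8 genes, the kept differences of the mothers ranged from 3.39 for Nitab4.5_0003830g0030 (2.15 between the hybrids) to -2.76 for Nitab4.5_0006718g0010 (-1.01 between the hybrids).

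Nitab4.5_0000008g0860 was the gene that changed direction. The mothers had 30.2, 24.1 and 38.7 FPKM in K and 53.0, 67.5 and 72.8 in G, a difference of -1.05 (SE 0.18, adjusted p = 0.00812). The hybrids had 55.3, 51.4 and 68.0 FPKM in KJ and 23.7, 21.2 and 24.9 in GJ, a difference of 1.28 (SE 0.18, adjusted p = 0.00616), and the difference of the differences was 2.33 (adjusted p = 0.000268). Each hybrid thus stood near the mother of the other cross. The gene was named because its calls were opposite, which makes the difference of the differences large by choice. That value and its adjusted p therefore only describe the gene. The difference of the mothers fell below the fold limit without K replicate 2 (-0.88) or without G replicate 3 (-0.95), and in a fit of K and G alone it was no longer called.

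Several of the largest differences between the mothers had no counterpart in the hybrids. Nitab4.5_0007650g0050, almost absent from G, had 21.3, 20.6 and 17.8 FPKM in KJ and 20.03, 19.5 and 19.1 in GJ, a difference of 0.02 (SE 0.09, adjusted p = 0.921). Nitab4.5_0005936g0020 had 24.4, 25.04 and 28.6 FPKM in KJ and 26.5, 24.1 and 26.6 in GJ (0.01, SE 0.14). GJ was thus near the level of J for both genes (22.9 and 24.5 FPKM) and not at a middle value between G and J. The same held for Nitab4.5_0006260g0010, with 43.8, 29.0 and 39.9 FPKM in KJ and 20.1, 24.7 and 29.8 in GJ (0.57, SE 0.17, adjusted p = 0.121), where the libraries of the hybrids overlapped.

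Other genes higher in G were low in both hybrids or high in both. Nitab4.5_0001150g0020 was low in both hybrids, with 0.35, 0.28 and 0.55 FPKM in KJ and 0.88, 0.38 and 0.66 in GJ, although G had 38.5 ± 5.84 (SD, n = 3). Nitab4.5_0003168g0020 was listed at 0 in all 6 hybrid libraries, and so was Nitab4.5_0000245g0270, which had at least 7.68 FPKM in every library of G and at least 10.6 in every library of J. The high level of G was therefore not seen in its own hybrid. Nitab4.5_0000069g0380, in contrast, was at most 0.07 FPKM in K and in J and yet had 13.1, 11.8 and 9.87 FPKM in KJ and 20.7, 15.5 and 14.3 in GJ. Here KJ carried a transcript that neither of its labelled parents showed.

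Of the abundant transcripts higher in G, 2 were present at levels between the mothers in both hybrids and 1 was low in both. Nitab4.5_0001310g0060 had 35.5, 45.6 and 31.6 FPKM in KJ and 67.6, 57.5 and 72.2 in GJ, a difference of -0.80 (SE 0.22, adjusted p = 0.109). Nitab4.5_0000188g0340 had 53.8, 51.0 and 76.0 FPKM in KJ and 96.3, 118 and 91.6 in GJ (-0.76, SE 0.33, adjusted p = 0.224). The libraries of the hybrids did not overlap in either gene, and KJ exceeded both K and J in both. Nitab4.5_0001523g0030 had 5.85, 1.67 and 0.13 FPKM in KJ and 10.8, 4.31 and 4.27 in GJ, which in both hybrids was far below the means of G (100.2) and J (41.1) and near that of K (4.72).

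Genes that were on in one mother and close to 0 in the other were counted separately, with on as at least 1 FPKM in each of the 3 libraries and near 0 as at most 0.1 FPKM in each. There were 64 such genes, 37 on in K and 27 on in G, of which 59 were among the 298. When the limit for near 0 was set at 0.5 FPKM there were 124, and without K replicate 2, G replicate 1 and J replicate 2 there were 101, both counts being added after the data had been seen. The 24 genes on in both K and J were on in GJ without exception, with KJ on in 19 and between the limits in 5. G was thus near 0 and GJ was not, but J, the father of GJ, was on in all 24 by choice. A level of GJ above the near-0 limit is therefore no separate finding. The 6 genes on in K alone had KJ on in 4, and GJ was near 0 in 2 and on in 1. Nitab4.5_0003830g0030, with 9.76 FPKM in K, 3.59 in KJ and 0.0267 in GJ as means, is of the first kind, and Nitab4.5_0000202g0480, with 4.65 in K, 2.40 in KJ and 3.10 in GJ, was on in both hybrids although the means of G and J were at most 0.0267.

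Among the genes on in G the pattern was less regular. Of the 15 on in G alone, both hybrids were near 0 in 8 and GJ was on in 4. The hybrid KJ was on in 3 of them, Nitab4.5_0000069g0380, Nitab4.5_0006718g0010 and Nitab4.5_0004024g0020, although K and J were near 0. Nitab4.5_0004024g0020 had a mean of 5.78 FPKM in G, 6.18 in KJ and 12.2 in GJ and was listed at 0 in K and J. Of the 8 on in both G and J, GJ was on in 6 and KJ in 2, with KJ near 0 in 2. In the remaining genes, 7 on in K and 4 on in G, J lay between the limits.

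The same count was made for the father. Both crosses share J and the mothers were alike at these genes, so the count cannot tell a cross of K from a cross of G. In 30 genes that were on in both mothers and near 0 in J, KJ was on in 26 and near 0 in none, and GJ was on in 9 and near 0 in 1. In the rest of the 30 each hybrid lay between the limits. Only 2 genes were on in J and near 0 in both mothers, and KJ was near 0 in both of these and GJ on in 1.

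**Figure D3:**
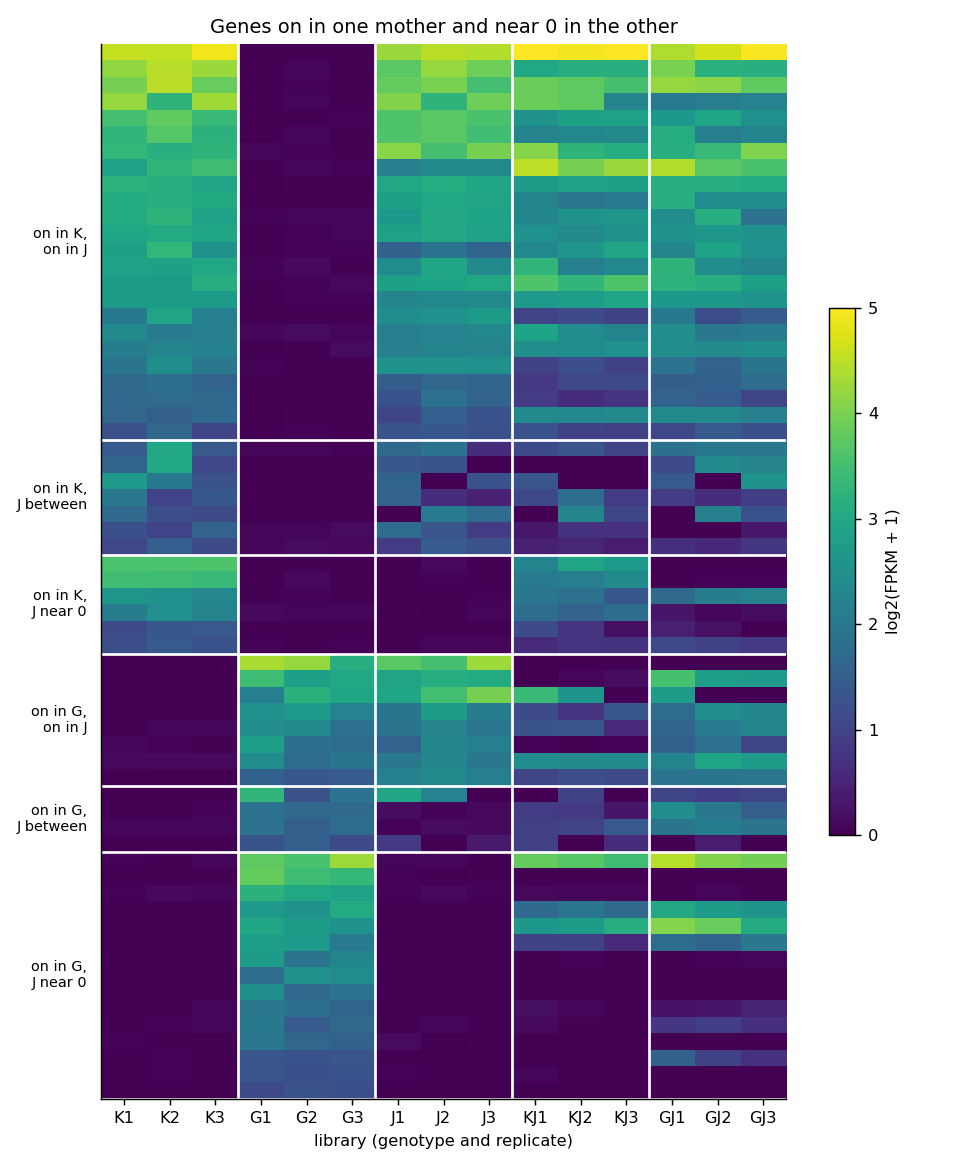
Level as log2(FPKM + 1), by colour, of the 64 genes on in one mother and near 0 in the other (rows, grouped by the mother in which they were on and by the level of J) in each of the 15 libraries (columns). The top group of 24 genes is dark in G and brighter in K, J and GJ, with KJ on in 19 of them, and the bottom group of 15 genes is bright in G and dark in K and J, with 8 genes dark in both hybrids and 3 bright in both.

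An overlapping set, chosen after the values had been seen, was taken from the means of the 298 genes, with at least 5 FPKM in the higher mother and below 1 in the lower one. Of the 36 such genes higher in K with J also at 5 FPKM or more, KJ had at least 1 FPKM in 36 and GJ in 34, and the 2 exceptions were Nitab4.5_0000714g0090 and Nitab4.5_0027235g0010. Their median KJ minus GJ was -0.05 (-0.14 over all genes tested) where the mid-parent value was 0.88, and 3 of the 36 were called the same way in the hybrids. In the 13 genes higher in G with J below 1 FPKM, GJ had at least 1 FPKM in 8 and KJ in 6, the median KJ minus GJ was -0.58 where the mid-parent value was -2.0, and 3 were called the same way. In the 4 genes higher in K with J below 1 FPKM, KJ had at least 1 FPKM in 3 and GJ in 1. Their median KJ minus GJ was 1.08 where the mid-parent value was 2.61, and 2 were called the same way. In the 3 genes higher in G with J at 5 FPKM or more, GJ had at least 1 FPKM in 2 and KJ in 1. Their median was -0.53 where the mid-parent value was -0.87, and 1 was called the same way. The mid-parent values use the means of K and G that chose the genes. Genes with J between 1 and 5 FPKM were not counted here.

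The called genes often had called neighbours, which is given as a description without a test. They lay on 251 of the 9895 scaffolds with tested genes, 32 scaffolds held at least 2 and 12 held at least 3, and 79 of the 298 (26.5%) shared a scaffold with another. Of the 396 tested genes next to a called gene in the ID order 46 were called (11.6%, against 0.838% of all genes tested). Of 25660 neighbouring pairs of tested genes 26 had both members called, and in 24 of these the direction was the same. Among the 32 scaffolds the called genes were all higher in K on 18, all higher in G on 4 and mixed on 10. Neighbours on the same scaffold may also be similar copies between which reads are divided, which was not tested.

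Scaffold Nitab4.5_0006260 held 3 tested genes, and all were called. Nitab4.5_0006260g0020, the middle one, had 8.90, 7.86 and 8.57 FPKM in K, 0.05, 0.04 and 0.02 in G, and 10.7 ± 4.68 in KJ and 10.8 ± 3.99 in GJ (SD, n = 3), like its neighbours described above. Nitab4.5_0006260g0030 had 32.4 ± 0.915 FPKM in KJ and 29.1 ± 3.74 in GJ (0.16, SE 0.14). All tested genes were also called, and higher in K, on scaffolds Nitab4.5_0005936 and Nitab4.5_0006949, with 3 genes each. On scaffold Nitab4.5_0005936 Nitab4.5_0005936g0030 differed by 3.92 and Nitab4.5_0005936g0010 by 2.79, and on scaffold Nitab4.5_0006949 the means of K were 7.47, 18.8 and 9.58 FPKM for Nitab4.5_0006949g0010, Nitab4.5_0006949g0020 and Nitab4.5_0006949g0030, against at most 0.0233 in G.

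On scaffold Nitab4.5_0000138 the 4 called genes, all higher in K, were the first 4 of the 15 tested. Nitab4.5_0000138g0010 had 10.4, 12.7 and 9.32 FPKM in K and 0, 0 and 0.03 in G (3.54, SE 0.14). Nitab4.5_0000138g0040 had 5.39, 6.48 and 5.93 in K and 0.31, 0.52 and 0.30 in G (2.33, SE 0.17), and Nitab4.5_0000138g0050 had 36.1, 45.3 and 37.7 in K and 7.62, 11.7 and 10.9 in G (1.89, SE 0.15). With the gene Nitab4.5_0000138g0020 given above, the difference became smaller from the first 2 genes to the fourth, and the next gene in the order, Nitab4.5_0000138g0060, had 12.9 FPKM in K and 17.9 in G and was not called (-0.44, adjusted p = 0.132). In the hybrids none of the 4 was called, with KJ minus GJ of 0.05, -0.30, 0.32 and -0.29 in order, and the means of GJ were 5.58, 16.8, 3.06 and 40.6 FPKM.

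Scaffold Nitab4.5_0000188 held the largest number, 5 called of 20 tested, in both directions. Nitab4.5_0000188g0340 and Nitab4.5_0000188g0350 are neighbours, and the first was higher in G (above) while the second had 56.9, 58.6 and 56.4 FPKM in K and 17.0, 23.8 and 13.4 in G, a difference of 1.65 (SE 0.20, adjusted p = 0.000459). Nitab4.5_0000188g0350 kept its order in the hybrids, with 25.5, 22.8 and 18.5 FPKM in KJ and 7.13, 7.64 and 11.6 in GJ (1.26, SE 0.20, adjusted p = 0.0155), and this hybrid call was lost without KJ replicate 1 (adjusted p = 0.0937), without GJ replicate 2 (0.0804) and in a fit of the hybrids alone (0.0776). Nitab4.5_0000188g0100 had 8.98, 7.2 and 8.21 FPKM in K and 2.09, 2.27 and 2.45 in G (1.48, SE 0.14), and its hybrid difference of 0.77 (adjusted p = 0.0253) was under the fold limit. Nitab4.5_0000188g0200 (1.16, SE 0.19) and Nitab4.5_0000188g0160 (-1.13, SE 0.16) lay between these positions, with uncalled genes on both sides, and both calls were lost in a fit of K and G alone.

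**Figure D4:**
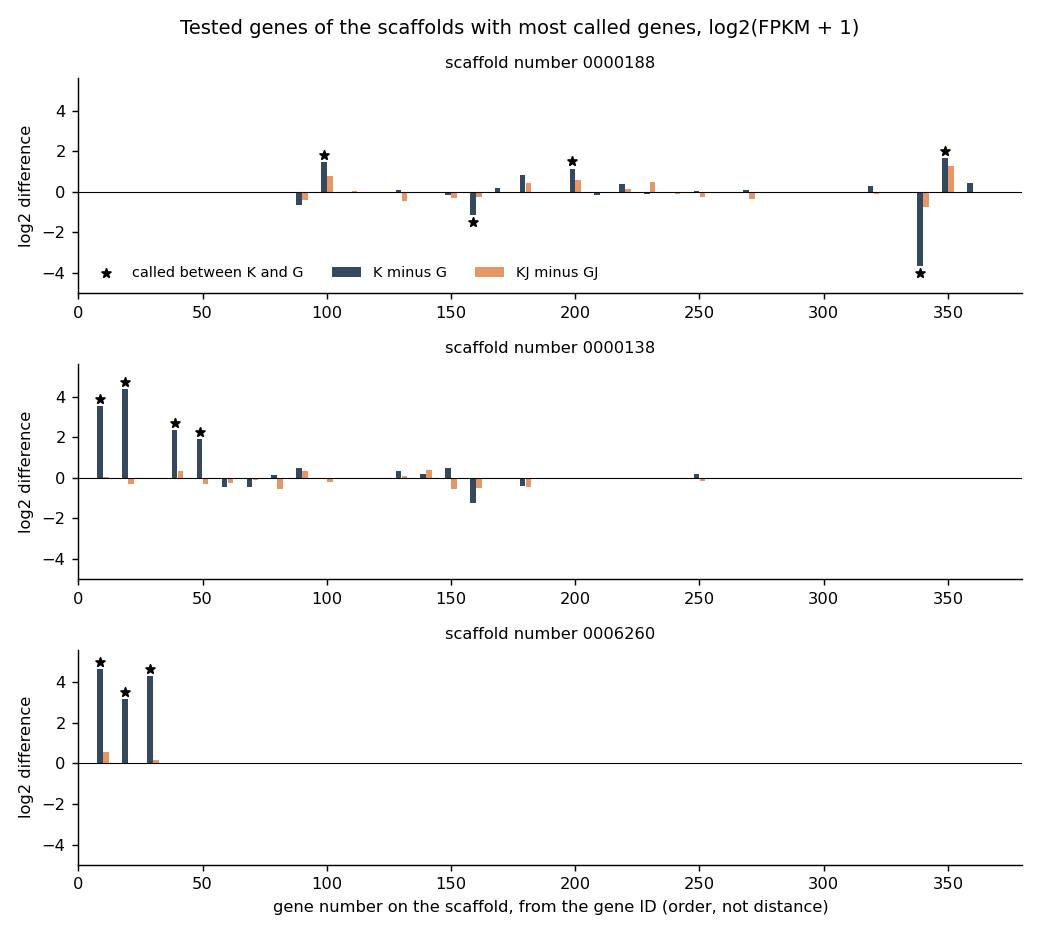
K minus G (dark) and KJ minus GJ (light) as differences of log2(FPKM + 1) for every tested gene of scaffolds Nitab4.5_0000188 and Nitab4.5_0000138, which held the most called genes, and of Nitab4.5_0006260, which had the largest summed difference of the scaffolds with 3 called genes, placed by the gene number in the ID, which gives order and not distance, with stars on genes called between K and G. All 3 genes of scaffold Nitab4.5_0006260 and the first 4 of scaffold Nitab4.5_0000138 have tall dark bars and light bars near 0, whereas scaffold Nitab4.5_0000188 has called genes of both directions among uncalled ones.

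The 9 genes that the study discusses by name were all among the genes tested, and none was called between K and G or between KJ and GJ. All had a higher mean in K than in G, by 0.26 to 0.98 on the log2 scale, where the median over all genes tested was 0.05. The study drew several of them from a single group of genes that vary together over these libraries. Their shared direction is therefore not 9 independent observations. The study describes 3 of them as serine/threonine or dual specificity protein kinases, enzymes that pass on signals by phosphorylating other proteins, and names them as candidates in root growth. Of these, Nitab4.5_0003282g0020 had 5.30, 1.5 and 7.31 FPKM in K and 1.41, 1.64 and 3.78 in G (0.70, SE 0.40, adjusted p = 0.551), and Nitab4.5_0011528g0020 had 3.38, 1.60 and 7.58 in K and 1.57, 1.29 and 3.39 in G (0.64, SE 0.42, adjusted p = 0.609). Nitab4.5_0004384g0070 had 4.99, 2.93 and 9.86 FPKM in K and 2.44, 1.59 and 6.10 in G (0.67, SE 0.41, adjusted p = 0.580). K replicate 2 was the lowest library of K in all 3 kinases and overlapped with G.

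The 3 genes assigned to cell differentiation showed the same overlap or came closer to the limit. Nitab4.5_0002714g0010 had 30.1, 11.47 and 24.5 FPKM in K and 11.2, 9.27 and 9.49 in G, and all libraries of K lay above those of G, by 0.97 (SE 0.31, adjusted p = 0.218). Without K replicate 2 this difference was 1.36 and was called (adjusted p = 0.0207). Nitab4.5_0008353g0010 had 42.4, 24.7 and 50.03 FPKM in K and 14.9, 14.8 and 28.6 in G (0.98, SE 0.33, adjusted p = 0.252), and Nitab4.5_0002918g0030 had 8.12, 4.01 and 14.0 in K and 1.98, 2.43 and 8.0 in G (0.97, SE 0.43, adjusted p = 0.411). K replicate 2 was again the lowest of K.

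The remaining 3 genes were a lysine-tRNA ligase, which charges the transfer RNA of lysine for protein synthesis, an NAD-dependent epimerase/dehydratase and a mitochondrial carrier protein, which belongs to a family that moves metabolites across the inner mitochondrial membrane. Nitab4.5_0000119g0080, the ligase, had 51.7 ± 32.7 FPKM in K and 31.6 ± 14.1 in G (SD, n = 3), and Nitab4.5_0002818g0040, the epimerase/dehydratase, had 10.9 ± 3.71 and 8.84 ± 2.79. Nitab4.5_0009232g0030, the carrier, had 11.1 ± 3.93 and 7.38 ± 1.13 (0.48, SE 0.23, adjusted p = 0.449). In the hybrids all 9 had a mean in KJ and in GJ above that of their own mother, with KJ minus GJ between -0.03 and 1.01, none of which was called (adjusted p of 0.164 to 0.969). The study reported these genes, from the same libraries, as raised above the parents or highly expressed in the hybrids. The higher hybrid means therefore repeat its description and are no separate result.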

How the data were processed

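Root RNA of K, G, J, KJ and GJ was sequenced by the authors in paired-end libraries, 3 per genotype. Reads shorter than 25 nt and of low quality had been removed, the rest mapped to the K326 genome and abundances made with RSEM. The paper names Tophat2 for mapping and the labels list HISAT2 and StringTie, without versions. The values deposited by the authors are FPKM with 2 decimals and hold no read counts, so no counting error or count test was computed. The paper gives a range of clean reads per sample, and the depth of each library was not used here. The sums per library also allow a TPM scale with features left out.

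Values were taken as log2(FPKM + 1). A gene was tested where 3 or more of the 6 K and G libraries reached 1 FPKM. Genotype means of all 15 libraries were fitted with limma 3.58.1 (trend and robust) in R 4.3.3, and K minus G, KJ minus GJ and their difference were tested two-sided, the p-values being adjusted after Benjamini and Hochberg over these genes. The limits were an adjusted p of 0.05 and an absolute log2 difference of 1. The mid-parent value was taken from genotype mean FPKM before the log. Plots were made with Python 3.11.15, NumPy 2.4.6 and matplotlib 3.10.9, and the fit was tested on simulated data. No library duplicated another, the highest correlation between libraries being 0.984.

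Genes are named by 4 rules: the 8 largest differences in each direction with a mean of at least 5 FPKM in the higher mother and no overlap, the 4 in each direction with the largest difference kept in the hybrids, those called the opposite way, and the called genes of the 3 scaffolds with most calls, ties broken by the summed absolute difference (10 scaffolds tied for the last place). The 9 genes the study names were added, and any other gene was named after its values were seen. The members, lists and rules were chosen with earlier results of these data known. Alternatives were a pseudocount of 0.1, no filter, only genes with a mean of 5 FPKM or more, quantile and median-of-ratios scaling, unadjusted p, no fold limit, the compared pair alone, no trend and robust options, a replicate block, and leaving out single libraries or 3 together. Sequences and descriptions of the gene models were not used here.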

Additional observations from a re-analysis of the deposited data

Results flagged for a closer look

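Of the 39 genes named by the rules given with the processing or added from the study, 17 had a hybrid difference that differed from that of the mothers. The test was limma's of (KJ minus GJ) minus (K minus G), with an adjusted p of at most 0.05 over all genes tested. The absolute value had to be at least 1. Since these genes were chosen on K minus G, the values are descriptions of them. Negative values belong to genes higher in K and positive ones to genes higher in G, and the size depends on the added 1 where a genotype is listed at 0. On scaffold Nitab4.5_0000138 the values were -3.487 for Nitab4.5_0000138g0010, -4.679 for Nitab4.5_0000138g0020, -2.016 for Nitab4.5_0000138g0040 and -2.176 for Nitab4.5_0000138g0050. On scaffold Nitab4.5_0006260 they were -4.094 for Nitab4.5_0006260g0010, -3.217 for Nitab4.5_0006260g0020 and -4.146 for Nitab4.5_0006260g0030. The other genes higher in K were Nitab4.5_0001123g0010 with -4.674, Nitab4.5_0005936g0020 with -4.481 and Nitab4.5_0007650g0050 with -4.5. In all 10 of these the means of K, J and both hybrids were above that of G. The mean of G was 10.1 FPKM for Nitab4.5_0000138g0050 and below 1 FPKM for the others.

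Among genes higher in G the value was 3.896 for Nitab4.5_0000245g0270, 3.53 for Nitab4.5_0003168g0020 and 4.318 for Nitab4.5_0001150g0020, which were low in both hybrids. It was 3.317 for Nitab4.5_0000069g0380, 2.885 for Nitab4.5_0000188g0340 and 2.449 for Nitab4.5_0001310g0060, which had high values in both hybrids. Nitab4.5_0000008g0860, which was named because it changed direction, had 2.325. Over all the genes called between K and G, 153 of 298 met the same test, against 280 of the 35555 genes tested (0.788%).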

How the results depend on the processing

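No named gene with a call changed sign under the alternatives run, but the balance of directions did. Under median-of-ratios scaling 142 genes were higher in K and 148 in G, and 84 in KJ and 59 in GJ. Quantile normalization gave 150 and 164, and 74 and 39, and with the values as deposited there were 63 higher in KJ and 84 in GJ. The main counts were 298 genes between K and G, 154 higher in K and 144 higher in G, 147 between KJ and GJ, 27 called the same way in both pairs, 153 with a called difference of the differences, 79 sharing a scaffold and 64 near 0 in one mother. In 60.4% of the 298 the hybrid difference lay on the side of the mid-parent difference. In these genes that side is the side of the higher mother, so the share only repeats the genes with the sign of the mothers. Of all genes tested 30.2% had KJ above GJ and 69.8% had GJ above KJ. With unadjusted p the main counts, leaving out the genes near 0, were 764, 357, 407, 900, 54, 486 and 193, and the share on the mid-parent side was 49.2%. With a mean of at least 5 FPKM, which tests fewer genes, 193 differed, 81 were higher in G, 97 differed between KJ and GJ, 15 were called in both pairs, 98 had a called difference of the differences, and 51 shared a scaffold. Without a fold limit 235 were higher in K, 248 differed between KJ and GJ, 53 were called in both and 130 shared a scaffold. The compared pair alone gave 197, with 85 higher in G, 80 between KJ and GJ, 12 in both and 46 sharing a scaffold. Without K replicate 2, G replicate 1 and J replicate 2 the counts were 468 between K and G, with 232 higher in K, 236 higher in G, 380 between KJ and GJ, 133 sharing a scaffold and 101 near 0. A pseudocount of 0.1 gave 294 between KJ and GJ, and a near-0 limit of 0.5 FPKM gave 124. The causes were not tested.

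With 1 library left out at a time the count between K and G stayed within 1.5 times of 298 and was lowest, 252, without K replicate 3. There were 141 to 194 higher in K, 111 to 159 higher in G, 52 to 332 between KJ and GJ, 15 to 29 in both, 130 to 189 with a called difference of the differences, 65 to 85 sharing a scaffold and a share of 56.9% to 69.1% (without K replicate 2) on the mid-parent side. With the replicate number as a block 280 genes differed between K and G, 128 between KJ and GJ and 26 in both, but same-numbered libraries of K and G deviated together with r of -0.31, -0.28 and 0.37, so the numbers were not taken as a pairing. Among the named genes K minus G lost its call in 8 cases and gained it in 2, and KJ minus GJ lost it in 40 and gained it in 3. The values hold no read counts, so no counting limit was computed for levels near 0.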
